A study of Homo sapiens with 4 samples.

Results

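Open chromatin at FLI1 and 8 related genes of the ETS transcription factor family (ERG, ETS1, ETS2, ETV1, ETV4, ETV5, ETV6 and GABPA) was examined in HK1, an established cell line from a human nasopharyngeal carcinoma. A peak belonged to a locus when it overlapped the gene body in GENCODE release 44 (GRCh38) or the 10 kb upstream of it by at least 1 bp. Merged over all lists, 49 of 93211 regions lay at the 9 loci, and the stretch from ETS1 to FLI1 on chromosome 11 was also taken as 1 interval with 18 regions. Chromatin had been profiled by ATAC-seq, which uses a transposase to cut and tag accessible DNA, to ask how loss of FLI1 alters the response of tumor cells to interferon-γ (IFN-γ). The 4 groups were wild-type cells without treatment (WT) or with IFN-γ for a day (WT-IFN-γ), and FLI1 knockout cells (FLI1-KO) made with a FLI1 guide RNA, without treatment (sgFLI1) or with IFN-γ (sgFLI1-IFN-γ). Every group was 1 peak list, treated as 1 library. Whether the FLI1-KO cells were a clone or a pool, which guide they carried, and whether a list came from pooled replicates are not given in the sources used here. A single list per group leaves no replicate spread to compare with, so no test was run, and the 95% intervals below cover counting error only.

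ETS factors share a DNA-binding domain that reads a GGAA core, and flanking bases and partner factors distinguish the members. FLI1 and ERG are close relatives best known from blood and endothelial cells. ETS1 and ETS2 are activated by RAS-MAPK signaling, ETV1, ETV4 and ETV5 form the PEA3 group and act downstream of growth factor receptors, ETV6 is mainly a repressor, and GABPA, paired with a GABPB subunit, drives promoters of housekeeping and mitochondrial genes. FLI1 and ETS1 are neighbors that point away from each other on chromosome 11, and ERG and ETS2 lie close together on chromosome 21.

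Signal is given as tags, the number of sequenced fragments stacked over the summit of a peak. The lists held 59629 to 67470 peaks, and the background was 8.04 tags per kb in WT and 8.84 in WT-IFN-γ, against 6.93 tags in sgFLI1 and 6.86 tags in sgFLI1-IFN-γ, so both FLI1-KO libraries were shallower. The weakest listed peak had 8 tags in each WT list and 7 in each FLI1-KO list, and a region without a peak is one below the calling threshold and not one without signal. As a check of the cell type, peaks were sought within 1 kb of any annotated transcription start site (TSS) of 6 epithelial genes. EPCAM and KRT17 had one in every list, CDH1 in 3 lists, and KRT5, KRT14 and TP63 in none. Summed over the 6 genes the signal was 123 tags in WT and 155 in WT-IFN-γ, with 92 tags in sgFLI1 and 68 tags in sgFLI1-IFN-γ. Among 5 blood cell genes, PTPRC, CD3E and SPI1 had no peak, and CD8A and CD14 had one in every list, with sums of 66, 72, 63 and 54 tags in the same order. The endothelial genes PECAM1, CDH5 and TIE1 summed to 18, 0, 40 and 48 tags. Their part in the results below was not tested.

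Regions in both lists of 1 genotype and neither of the other were considered for display. So were those with the highest and lowest ratios of FLI1-KO over WT cells without IFN-γ, at 60 or more tags in the pair. The sequences under 7 of these regions are shown. Each is the reference sequence of GRCh38, plus strand, 5′ to 3′, centered on the summit. Capitals mark a motif: CCGGAA (core of an ETS site) in FLI1, TGANTCA (AP1) in ETS1 and the first ETV6 region, TGTGGTT (RUNX) in ERG and GAAANNGAA (IRF) in the second ETV6 region. The FLI1 intron 1 and ETV4 regions held none of them in these windows. Not shown are the FLI1 intron 4 region, that 7.35 kb upstream of the canonical ERG TSS and that 5.9 kb before the first annotated ETV4 TSS. They too were in both lists of 1 genotype and neither of the other, and held none of these motifs in windows of the same length.
FLI1 promoter region, chr11:128693193-128693343 (+): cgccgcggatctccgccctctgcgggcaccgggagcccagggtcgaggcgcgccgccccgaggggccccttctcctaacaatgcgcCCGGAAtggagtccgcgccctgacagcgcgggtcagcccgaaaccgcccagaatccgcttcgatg
FLI1 intron 1 region, chr11:128733863-128734013 (+): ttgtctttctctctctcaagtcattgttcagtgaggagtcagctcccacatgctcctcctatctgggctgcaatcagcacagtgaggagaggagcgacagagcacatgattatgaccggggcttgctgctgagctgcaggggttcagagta
ETS1 upstream region, chr11:128593499-128593649 (+): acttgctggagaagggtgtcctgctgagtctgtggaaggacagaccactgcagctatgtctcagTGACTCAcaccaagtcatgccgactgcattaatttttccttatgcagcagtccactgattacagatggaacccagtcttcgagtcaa
ERG intron 1 region, chr21:38488512-38488662 (+): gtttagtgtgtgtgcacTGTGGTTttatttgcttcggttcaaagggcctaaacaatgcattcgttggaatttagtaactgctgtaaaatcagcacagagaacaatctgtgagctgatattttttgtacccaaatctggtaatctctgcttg
ETV6 intron 1 region, chr12:11719887-11720037 (+): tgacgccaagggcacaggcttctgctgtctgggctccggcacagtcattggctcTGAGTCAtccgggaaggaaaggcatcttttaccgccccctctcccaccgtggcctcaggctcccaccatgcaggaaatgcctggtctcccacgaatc
ETV6 intron 6 region, chr12:11885543-11885693 (+): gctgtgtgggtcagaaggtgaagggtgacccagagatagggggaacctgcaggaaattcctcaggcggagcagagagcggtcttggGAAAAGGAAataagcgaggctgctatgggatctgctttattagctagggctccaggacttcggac
ETV4 intron 8 region, chr17:43530913-43531063 (+): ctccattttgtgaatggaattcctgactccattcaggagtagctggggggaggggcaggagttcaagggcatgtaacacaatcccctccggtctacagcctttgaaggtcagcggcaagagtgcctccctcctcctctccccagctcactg

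The 9 loci held 36 WT peaks and 40 WT-IFN-γ peaks, against 37 peaks in sgFLI1 and 34 peaks in sgFLI1-IFN-γ. This was 31.4, 34.9, 32.3 and 29.6 peaks per Mb, where the whole lists held 19.7, 22.3, 20.9 and 19.8. The loci are gene bodies with 10 kb upstream, whereas the whole lists were divided by full chromosome lengths. These densities are thus not like for like, and the windows of other genes were not counted. Of the 49 regions, 26 (53.1%, exact binomial interval 38.3 to 67.5%) were in every list, against 43.9% of all regions. Both WT lists and neither FLI1-KO list held 4 regions (8.16%, 2.27 to 19.6%), where the share over all regions was 4.2%, and both FLI1-KO lists and neither WT list also held 4, where it was 3.56%. These intervals include the shares over all regions. A single list held 9 regions (18.4%, 8.76 to 32.0%), against 32.4% of all regions, which lies just above the interval. No region was shared by both IFN-γ lists alone, against 1.74% of all regions (interval at the 9 loci 0 to 7.25%), and none by both untreated lists alone, against 1.3%. The 26 regions in every list had a median of 49 tags (range 9 to 225), and the 23 missing from a list had a median of 18 tags (range 7 to 42), so presence or absence turned on the weaker regions. Of the 12 regions within 1 kb of an annotated TSS of their own gene, 10 were in every list. Their medians, over all 12, were 87 tags in WT and 90 in WT-IFN-γ, against 84 tags in sgFLI1 and 75.5 tags in sgFLI1-IFN-γ. The same share over all regions near a TSS was not taken. By the canonical TSS, 11123 of all 19970 coding genes had a peak in every list and 7257 in none. For the 9 members these counts were 5 and 3.

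By the strongest region within 1 kb of any annotated TSS of the gene, the genes fell into 3 levels. FLI1 had a weak region in WT cells only, ERG had none in any list, and the other 7 genes had a strong region in every list, at 53 to 225 tags. At ETS1 that region lay at an internal TSS, 64.9 kb into the gene, and the canonical TSS had no peak. ETV1 likewise had no peak summit within 1 kb of its canonical TSS in any list. The summit of its region lay 1.76 kb upstream of that TSS and 3 bp downstream of another annotated TSS.

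**Figure D1:**
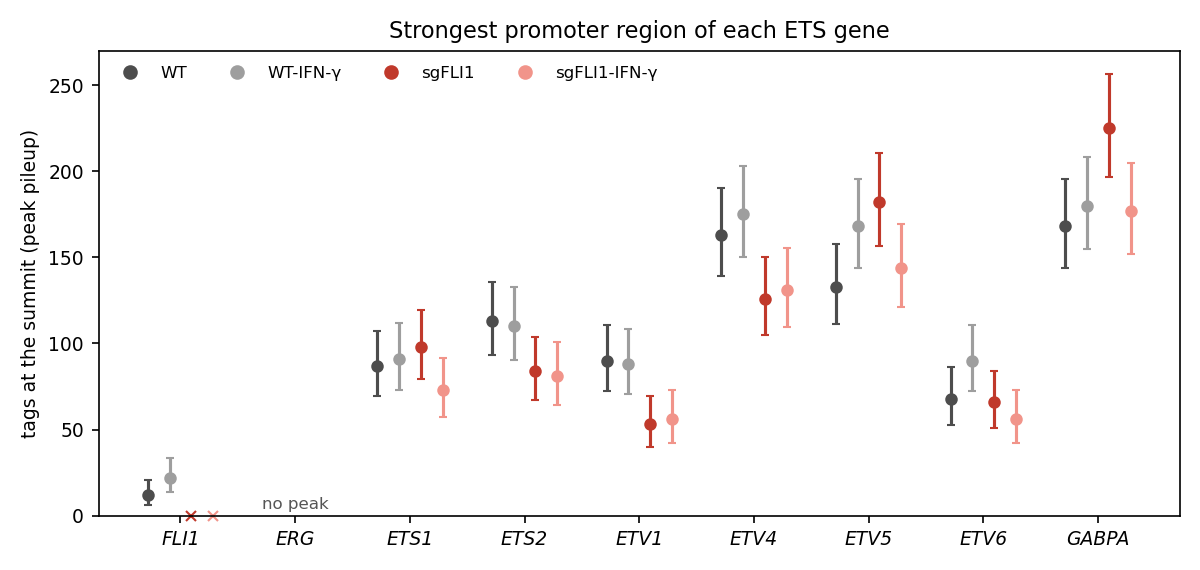
Tags at the summit of the strongest region within 1 kb of an annotated TSS of each ETS gene, in the 4 libraries (points) with exact Poisson intervals (bars); a cross marks a list without a peak. FLI1 stands at 12 and 22 tags in the WT libraries and has no peak in either FLI1-KO library, and GABPA in sgFLI1 is the highest point at 225 tags.

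At FLI1 (ENSG00000151702.18, chr11:128686535-128813267, plus strand), the gene targeted in the knockout, 7 regions were found. An edit by a guide RNA need not change accessibility, so the peaks do not check the genotype label. The region near the TSS (chr11:128692854-128693883) had its summit 804 bp upstream of the canonical TSS and 286 bp downstream of that of another FLI1 transcript, within the antisense lncRNA gene SENCR. It held 12 tags in WT (6.2 to 21.0) and 22 in WT-IFN-γ (13.8 to 33.3), and no peak in sgFLI1 or sgFLI1-IFN-γ. Scaled by the median ratio of shared peaks, the signal of the WT list under the same treatment corresponded to 10.7 tags in sgFLI1 (5.53 to 18.7), where 7 would have been listed, and to 16.8 tags in sgFLI1-IFN-γ (10.6 to 25.5), where 9 would have been. The untreated pair was thus close to the calling threshold, and its interval includes it. With IFN-γ in WT cells its log2 ratio was 0.80 (-0.28 to 1.95), an interval that includes no change.

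Further into FLI1 the order of the genotypes was the other way round at a pair of regions. In intron 1, 39.9 kb from the TSS (chr11:128733522-128734514), sgFLI1 had 13 tags and sgFLI1-IFN-γ 10, and neither WT list had a peak. At the signal of the FLI1-KO list under the same treatment 14.6 tags (7.77 to 24.9) were expected in WT and 13.1 (6.27 to 24.0) in WT-IFN-γ, where 8 were needed, and both intervals include that threshold. In intron 4, 82.6 kb from the TSS (chr11:128776437-128777104), sgFLI1 had 14 tags and sgFLI1-IFN-γ 9, again with no peak in WT cells. There 15.71 tags (8.587 to 26.35) were expected in WT, where 8 were needed, an interval that lies above the threshold. It holds the counting error of sgFLI1 and not that of WT, so whether the absence exceeds counting error was not tested. In WT-IFN-γ 11.76 tags (5.379 to 22.33) were expected and 8 needed, an interval that includes it. Both regions were close to the lowest signal that the lists report.

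Intron 1 of FLI1 also held the gene's only regions present in every list. The first, 15.5 kb from the TSS, had 20 tags in WT and 33 in WT-IFN-γ, against 21 tags in sgFLI1 and 18 tags in sgFLI1-IFN-γ. The second, 21.1 kb from the TSS, had 21, 16, 31 and 25 tags in the same order. Their log2 ratios of sgFLI1-IFN-γ over WT-IFN-γ, after centering on the median ratio of all shared peaks, were -0.45 (-1.37 to 0.42) and 1.06 (0.10 to 2.07), so only the second lay apart from 0. A region in intron 5 had 9 tags in WT, 11 tags in WT-IFN-γ, 15 tags in sgFLI1 and no peak in sgFLI1-IFN-γ, and one in exon 9 had 12 tags in WT-IFN-γ alone. Summed with no tag minimum over the 3 FLI1 regions paired between the untreated lists, the log2 ratio of sgFLI1 over WT was 0.59 (0.04 to 1.15) from 67 and 50 tags, and over the 2 paired with IFN-γ it was 0.23 (-0.39 to 0.85). Regions listed in 1 genotype only cannot enter these sums. They leave out the region near the TSS, listed in WT cells, and the pair listed in FLI1-KO cells, so they do not describe the whole locus.

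At ETS1 (ENSG00000134954.14, chr11:128458761-128587558, minus strand) 9 regions were found, 6 of them in every list. No list had a peak within 1 kb of the canonical TSS. The strongest regions lay in intron 3. One, at chr11:128521541-128522875, had its summit 329 bp upstream of an internal TSS of ETS1 and 249 bp from the start of the microRNA gene MIR6090, with 87 tags in WT and 91 in WT-IFN-γ, against 98 tags in sgFLI1 and 73 tags in sgFLI1-IFN-γ. Another, at chr11:128496451-128497780, 90.4 kb from the canonical TSS, had 92, 106, 83 and 73 tags. Centered log2 ratios of FLI1-KO over WT were 0.34 (-0.09 to 0.77) and 0.10 (-0.36 to 0.56) at the first, and 0.02 (-0.43 to 0.46) and -0.12 (-0.57 to 0.33) at the second, without and with IFN-γ. All 4 intervals include 0.

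The other intron 3 regions of ETS1 were weaker. That 80.1 kb from the TSS had 45 tags in WT and 41 in WT-IFN-γ, against 30 tags in sgFLI1 and 36 tags in sgFLI1-IFN-γ, and that 84.6 kb from it had 22, 19, 26 and 30. At the latter the log2 ratio of sgFLI1-IFN-γ over WT-IFN-γ was 1.08 (0.20 to 1.99), against 0.41 (-0.47 to 1.3) without IFN-γ. In intron 1, the region 4.49 kb from the TSS had 25, 20, 19 and 27 tags, and the region 12.4 kb from it had no peak in WT and 21, 19 and 19 tags in the other lists. At the latter 21.32 tags (12.83 to 33.29) were expected in WT from sgFLI1, where 9 were needed. In intron 8, a region 120 kb from the TSS had 13, 11, 14 and 9 tags, and one 115 kb from it had 20 tags in WT-IFN-γ alone.

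Upstream of ETS1, 6.02 kb from the TSS (chr11:128593420-128593831), a region was listed in FLI1-KO cells only. It had 12 tags in sgFLI1 (6.2 to 21.0) and 17 tags in sgFLI1-IFN-γ (9.9 to 27.2). At equal treatment this signal corresponded to 13.5 tags in WT (6.96 to 23.5) and 22.2 in WT-IFN-γ (12.9 to 35.6), where 8 would have been listed. This is the region whose AP1 motif lay 11 bp from the summit. The paired ETS1 regions were summed with no tag minimum. The log2 ratio of FLI1-KO over WT was 0.09 (-0.15 to 0.34) without IFN-γ (6 regions) and 0.21 (-0.03 to 0.45) with it (7 regions). Both intervals include 0.

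Taken as 1 interval, ETS1 and FLI1 with the 99.0 kb between them (chr11:128458761-128813267, 354.5 kb) held 11 WT peaks and 14 WT-IFN-γ peaks, with 15 peaks in sgFLI1 and 13 peaks in sgFLI1-IFN-γ. Of its 18 regions, 9 were in every list, 1 was in both WT lists only (the FLI1 region near the TSS), 3 were in both FLI1-KO lists only (the pair in FLI1 and the one upstream of ETS1), and 3 were in a single list. Between the genes, outside the windows of both, 2 regions remained. One lay 63.5 kb upstream of the FLI1 TSS (chr11:128629974-128631083), overlapping the lncRNA genes ENSG00000245008 and ENSG00000288975, and had 25 tags in WT and 28 in WT-IFN-γ, against 14 tags in sgFLI1 and 17 tags in sgFLI1-IFN-γ. Its centered log2 ratios of FLI1-KO over WT were -0.67 (-1.73 to 0.33) without IFN-γ and -0.30 (-1.26 to 0.62) with it, and both intervals include 0. The other, 61.8 kb upstream, had 8 tags in sgFLI1 alone. Peaks within 5 Mb of FLI1 had a median log2 ratio of FLI1-KO over WT of 0.03 without IFN-γ and 0.01 with it, so the neighborhood as a whole stood near the genome's median.

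**Figure D2:**
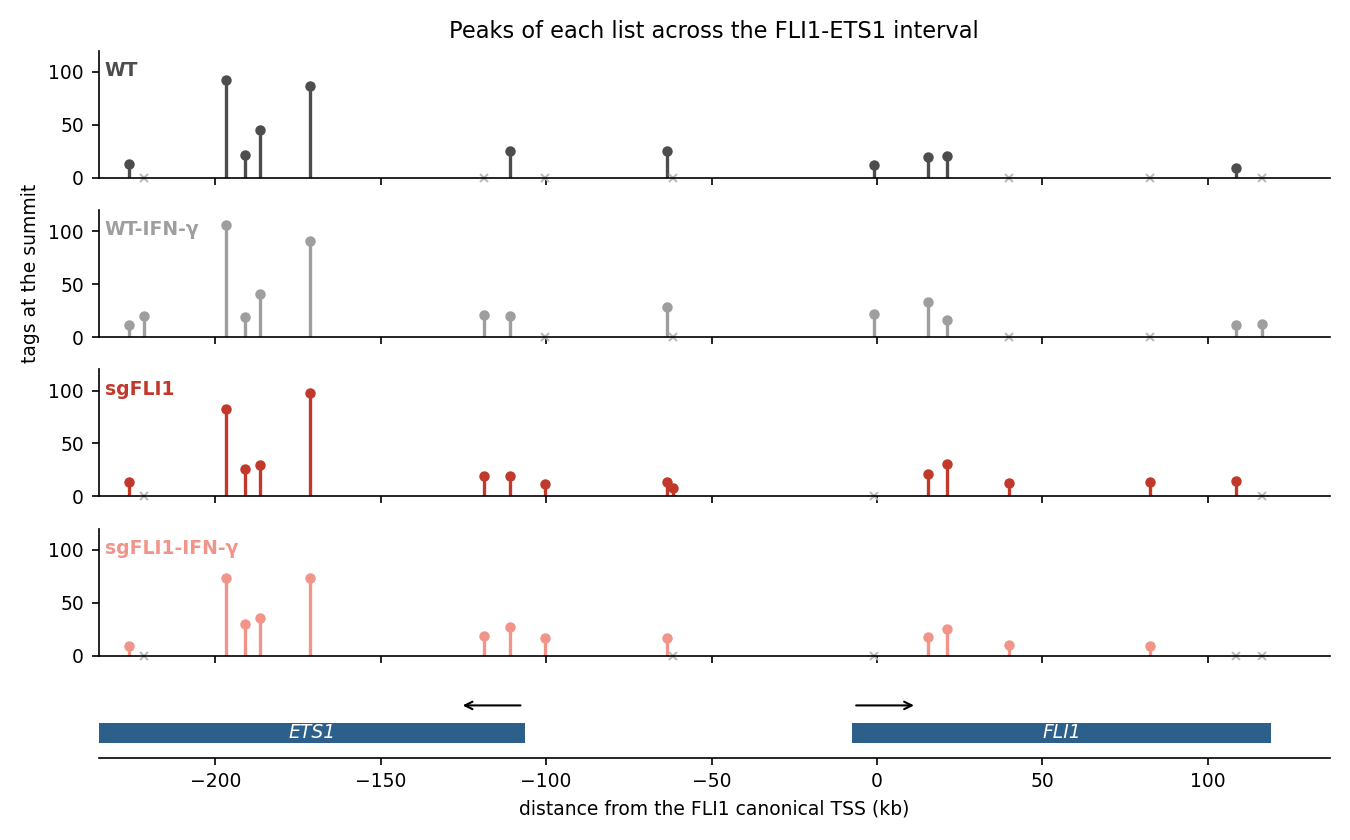
Tags at the summit of every peak across the FLI1-ETS1 interval, 1 track per library, against distance in kb from the canonical FLI1 TSS; gray crosses mark regions with no peak in that library, and bars with arrows show the genes and their direction. The tall peaks all lie within ETS1, and the FLI1 TSS carries a peak in both WT tracks and in neither FLI1-KO track.

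At ERG (ENSG00000157554.20, chr21:38380027-38661780, minus strand), the closest relative of FLI1, 5 regions were found and none lay within 1 kb of any of its 11 annotated TSSs. The region in intron 1, 9.89 kb from the canonical TSS (chr21:38488076-38489056), had 18 tags in WT, 10 in WT-IFN-γ and no peak in FLI1-KO cells. Another, 7.35 kb upstream of the canonical TSS but within longer transcripts (chr21:38505575-38506083), had 22 tags in WT, 13 in WT-IFN-γ and again no peak in FLI1-KO cells. From the WT list under the same treatment, 16.0 tags (9.51 to 25.4) were expected at the first in sgFLI1 and 7.65 tags (3.67 to 14.1) in sgFLI1-IFN-γ, where 7 were needed. At the second, 19.6 tags (12.3 to 29.7) were expected in sgFLI1 and 9.95 tags (5.3 to 17.0) in sgFLI1-IFN-γ, where 7 were needed as well. With IFN-γ the intervals of both regions include the threshold. The expected values allow for depth and carry the counting error of the list they came from, and whether either shortfall exceeds the variation between libraries was not tested.

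Of the other 3 ERG regions, the strongest, in intron 2 and 57.6 kb from the TSS, had 38 tags in WT and 48 in WT-IFN-γ, with 42 tags in sgFLI1 and 36 tags in sgFLI1-IFN-γ, and its log2 ratios of FLI1-KO over WT were 0.31 (-0.36 to 0.98) and 0.01 (-0.66 to 0.66). AP1 motifs flanked its summit on both sides, 82 and 83 bp away. A region 59.8 kb from the TSS had 27, 31 and 20 tags and no peak in sgFLI1-IFN-γ, where 23.7 tags (16.1 to 33.7) were expected and 14 needed, and its log2 ratio of sgFLI1 over WT was -0.26 (-1.18 to 0.62). One 5.22 kb upstream had 13, 11, 13 and 13 tags.

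ETS2 (ENSG00000157557.13, chr21:38805183-38824955, plus strand) had a strong promoter region 222 bp downstream of an annotated TSS, with 113 tags in WT and 110 in WT-IFN-γ, against 84 tags in sgFLI1 and 81 tags in sgFLI1-IFN-γ. After centering, the log2 ratios of FLI1-KO over WT were -0.26 (-0.68 to 0.16) and -0.02 (-0.45 to 0.41), so the genotypes were within counting error once depth was allowed for. Upstream, 8.24 kb from the canonical TSS, a region had 47, 64, 54 and 44 tags. In intron 2, 5.52 kb from the TSS (chr21:38810994-38811636), a region had 19 tags in WT and 42 in WT-IFN-γ, a log2 ratio of 1.07 (0.26 to 1.93). The same region had no peak in sgFLI1, where 16.9 tags (10.2 to 26.5) were expected from WT and 10 needed, and 18 tags in sgFLI1-IFN-γ, and the difference between the genotypes in this response was not tested. In intron 8 a region had 32, 20 and 13 tags and no peak in sgFLI1-IFN-γ, where 15.3 tags (9.35 to 23.6) were expected and 10 needed. Its log2 ratio of sgFLI1 over WT was -1.13 (-2.19 to -0.16), from 45 tags in the pair.

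GABPA (ENSG00000154727.11, chr21:25734570-25772460, plus strand) had 1 region in each list, the strongest at any of the 9 loci. Its summit lay in exon 1, 121 bp downstream of the TSS, and 60 bp upstream of the TSS of ATP5PF, a subunit gene of the mitochondrial ATP synthase, so the promoter is shared and the signal cannot be assigned to either gene. The tags were 168 in WT (144 to 195) and 180 in WT-IFN-γ (155 to 208), with 225 tags in sgFLI1 (197 to 256) and 177 tags in sgFLI1-IFN-γ (152 to 205). Relative to the median of all shared peaks the region was higher in FLI1-KO cells without IFN-γ, with a log2 ratio of 0.59 (0.29 to 0.89), and with it, at 0.40 (0.09 to 0.70). Peaks within 5 Mb had medians of -0.03 and -0.07. With IFN-γ the log2 ratio was 0.02 (-0.29 to 0.34) in WT and -0.17 (-0.46 to 0.12) in FLI1-KO cells. The letters TTCCGG, an ETS core on the minus strand, lay 14 bp from the summit.

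The PEA3 genes had strong promoters whose ratios differed in sign. At ETV4 (ENSG00000175832.13, chr17:43527844-43579620, minus strand) the region at the canonical TSS had 163 tags in WT and 175 in WT-IFN-γ, against 126 tags in sgFLI1 and 131 tags in sgFLI1-IFN-γ, with log2 ratios of FLI1-KO over WT of -0.20 (-0.55 to 0.14) and 0.00 (-0.33 to 0.34). At ETV5 (ENSG00000244405.8, chr3:186046314-186110318, minus strand) the promoter region had 133, 168, 182 and 144 tags, with log2 ratios of 0.62 (0.29 to 0.95) without IFN-γ and 0.20 (-0.13 to 0.53) with it. Peaks within 5 Mb of ETV5 also stood above the genome's median, at 0.21 and 0.17. At ETV1 (ENSG00000006468.15, chr7:13891229-13991425, minus strand) the promoter region had 90, 88, 53 and 56 tags, with log2 ratios of -0.60 (-1.11 to -0.09) and -0.23 (-0.74 to 0.27), where the neighborhood had medians of -0.12 and -0.11. Without IFN-γ the counting interval lay above 0 at the ETV5 promoter and below 0 at the ETV1 promoter, and with IFN-γ both included 0.

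Away from the canonical TSS, intron 8 of ETV4 held the highest ratio of FLI1-KO over WT among member regions with at least 60 tags in the pair. At chr17:43530347-43531612, 554 bp upstream of an internal TSS, it had 57 tags in WT (43.2 to 73.9) and 63 in WT-IFN-γ (48.4 to 80.6), with 100 tags in sgFLI1 (81.4 to 121.6) and 78 tags in sgFLI1-IFN-γ (61.7 to 97.3). The log2 ratio of FLI1-KO over WT was 0.98 (0.50 to 1.47) without IFN-γ and 0.73 (0.23 to 1.23) with it, and the neighborhood had medians of 0.04 and 0.15. With IFN-γ over without, its ratio was 0.07 (-0.47 to 0.61) in WT and -0.18 (-0.63 to 0.26) in FLI1-KO cells. Upstream of ETV4, 5.9 kb before its first annotated TSS (chr17:43585142-43585715), a region had 30 tags in WT, 18 in WT-IFN-γ and no peak in FLI1-KO cells. In sgFLI1 26.7 tags (18.0 to 38.2) were expected from WT and 15 needed, and in sgFLI1-IFN-γ 13.8 tags (8.16 to 21.8) from WT-IFN-γ and 12 needed, so with IFN-γ the interval includes the threshold. A region 9.37 kb before that TSS had 26 tags in WT-IFN-γ alone. The remaining 4 regions of ETV4, between 32.8 and 10.1 kb upstream of the canonical TSS, were in every list at 19 to 73 tags.

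ETV5 had its strongest region outside the promoter in intron 5, 11.1 kb from the TSS (chr3:186097684-186098428), with 38 tags in WT and 56 in WT-IFN-γ, against 20 tags in sgFLI1 and 25 tags in sgFLI1-IFN-γ. The log2 ratio of FLI1-KO over WT was -0.76 (-1.62 to 0.06) without IFN-γ and -0.74 (-1.48 to -0.04) with it. This was opposite in sign to the promoter of the same gene. Its 3 other regions were single peaks of 8 to 10 tags in a WT library. ETV1 had a region in intron 9, 69.4 kb from the TSS, with 79, 93, 87 and 64 tags, and one in intron 5 with 23 tags in WT, 19 in sgFLI1, 26 in sgFLI1-IFN-γ and no peak in WT-IFN-γ. At the latter 33.98 tags (22.2 to 49.79) were expected in WT-IFN-γ from sgFLI1-IFN-γ, where 8 were needed.

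At ETV6 (ENSG00000139083.11, chr12:11649674-11895377, plus strand) the promoter region, 576 bp upstream of the TSS, had 68 tags in WT and 90 in WT-IFN-γ, with 66 tags in sgFLI1 and 56 tags in sgFLI1-IFN-γ. Its log2 ratios of FLI1-KO over WT were 0.13 (-0.39 to 0.64) and -0.26 (-0.77 to 0.23), and both intervals include 0. In intron 6, 319 bp upstream of an internal TSS (chr12:11884833-11885885), a region had 45 tags in WT (32.8 to 60.2) and 30 in WT-IFN-γ (20.2 to 42.8), against 17 tags in sgFLI1 (9.9 to 27.2) and 18 tags in sgFLI1-IFN-γ (10.7 to 28.4). Its log2 ratio of FLI1-KO over WT was -1.24 (-2.13 to -0.40) without IFN-γ, the lowest there among member regions with at least 60 tags in the pair, and -0.32 (-1.25 to 0.57) with it, where the pair had 48 tags. In WT cells the log2 ratio of IFN-γ over untreated was -0.66 (-1.38 to 0.04), an interval that includes 0.

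Intron 1 of ETV6 held a region of FLI1-KO cells only, 70.3 kb from the TSS (chr12:11719498-11720050), with 16 tags in sgFLI1 and 13 tags in sgFLI1-IFN-γ. At equal treatment, 18.0 tags (10.3 to 29.2) were expected in WT and 17.0 (9.05 to 29.1) in WT-IFN-γ, where 8 were needed, and an AP1 motif lay 21 bp from the summit. An intron 2 region had 28, 20, 23 and 19 tags. Single peaks were seen in sgFLI1 at 510 bp downstream of the TSS (25 tags) and in intron 5 (10 tags), and in sgFLI1-IFN-γ in intron 2 (7 tags). ETV6 had 3 peaks in each WT list, 6 in sgFLI1 and 5 in sgFLI1-IFN-γ, whereas ERG had 5 in each WT list, 3 in sgFLI1 and 2 in sgFLI1-IFN-γ.

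**Figure D3:**
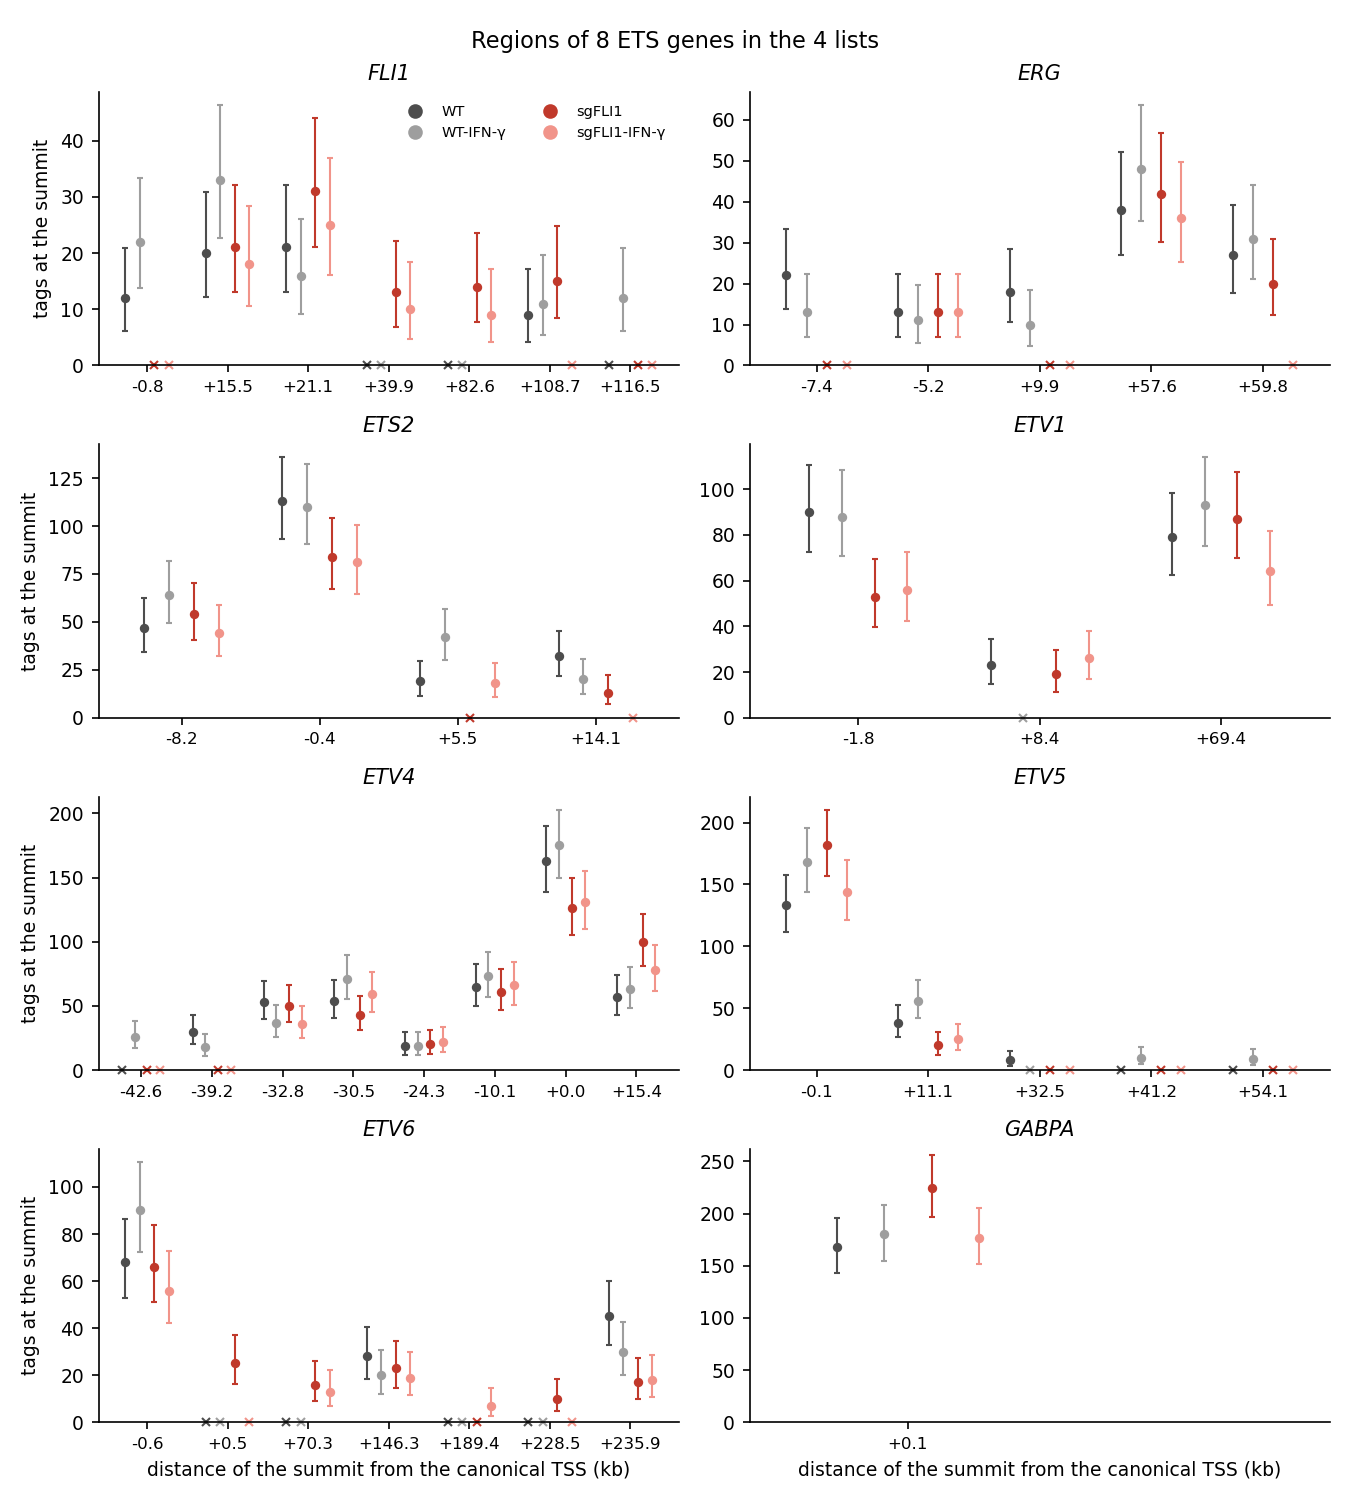
Tags at the summit of each region of 8 ETS genes in the 4 libraries (points) with exact Poisson intervals (bars); the x axis gives the distance of the summit from the canonical TSS in kb, and crosses on the axis mark lists without a peak. The ETV4 region at +15.4 kb is higher in both FLI1-KO libraries, and the ETV6 region at +235.9 kb is highest in WT.

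Ratios over all loci were taken from regions paired 1 to 1 between lists with at least 60 tags in the pair. Summed over the members, the centered log2 ratio of sgFLI1 over WT was 0.17 (0.06 to 0.28, 17 regions), and the median over regions was 0.08. The GABPA and ETV5 promoter regions gave 225 and 182 of the 1401 tags in sgFLI1, and 168 and 133 of the 1397 in WT. A sum without these regions was not taken. The summed ratio of sgFLI1-IFN-γ over WT-IFN-γ was 0.07 (-0.04 to 0.18, 18 regions) with a median of 0.00. For WT-IFN-γ over WT it was 0.09 (-0.02 to 0.19, 19 regions), and for sgFLI1-IFN-γ over sgFLI1 -0.02 (-0.13 to 0.09, 16 regions). The median over all shared peaks is 0 by construction. The regions are not replicates, and the comparisons share libraries.

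Without IFN-γ, 3 of 17 regions were at least 1.5-fold higher in FLI1-KO than in WT cells (17.6%, against 8.76% of all 28027 paired regions), the ETV4 intron 8, ETV5 promoter and GABPA regions, and 2 were as much lower (11.8%, against 7.41%), the ETV6 intron 6 and ETV1 promoter regions. With IFN-γ, 1 of 18 was higher (5.56%, against 7.57%), again in ETV4 intron 8, and 2 were lower (11.1%, against 8.29%), in intron 2 of ETS2 and intron 5 of ETV5. After IFN-γ in WT cells, 1 of 19 was higher (5.26%, against 6.09%), in intron 2 of ETS2, and 2 were lower (10.5%, against 2.51%), in intron 6 of ETV6 and 32.8 kb upstream of the canonical ETV4 TSS. In FLI1-KO cells, 1 of 16 was higher (6.25%, against 1.74%), 30.5 kb upstream of the canonical ETV4 TSS, where sgFLI1 had 43 tags and sgFLI1-IFN-γ 59, and 0 were lower (background 1.04%). With 16 to 19 regions, 1 region more or less moved these shares by 5.26 to 6.25 percentage points, and no region's interval lay wholly past 1.5-fold.

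**Figure D4:**
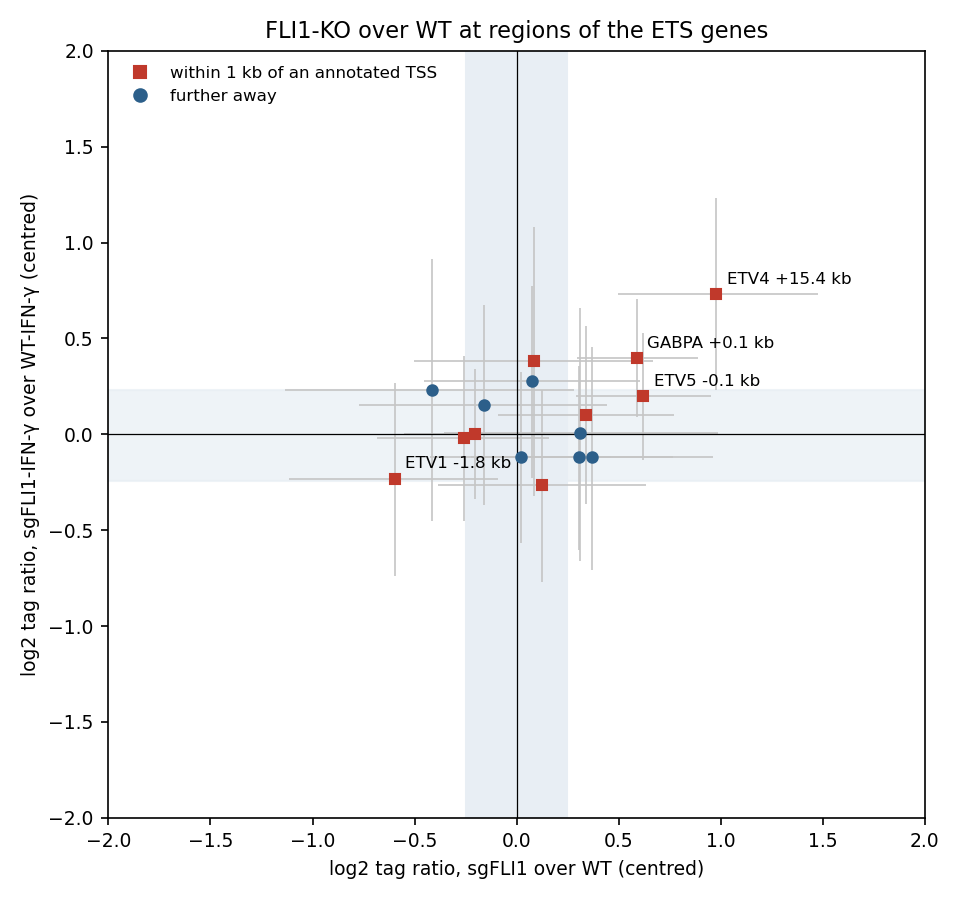
Centered log2 tag ratios of FLI1-KO over WT without IFN-γ (x axis) and with it (y axis) for the 16 member regions with at least 60 tags in both pairs; squares lie within 1 kb of an annotated TSS, bars are exact 95% counting intervals, and shaded bands hold the middle 50% of all paired regions. ETV4 at +15.4 kb lies highest on both axes (0.98 and 0.73), and ETV1 at -1.8 kb lies lowest on the x axis (-0.60).

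For the rest of the family, a peak within 1 kb of any annotated TSS was sought at 19 further ETS genes. It was present in all 4 lists at 12 of them and in none at 7 (FEV, ETV3L, EHF, SPDEF, SPI1, SPIB and SPIC), so no further gene was listed in some lists only. SPI1, SPIB and SPIC are blood cell factors, and EHF and SPDEF are factors of epithelia. By the canonical TSS, 9 of the 19 had a peak in all lists and 9 in none, and ETV7 differed, with 18 tags in WT, 15 in sgFLI1 and no peak in either IFN-γ list. Over any annotated TSS, ETV7 had 18 tags in WT and 56 in WT-IFN-γ, with 15 tags in sgFLI1 and 11 tags in sgFLI1-IFN-γ. A canonical TSS with a peak was seen at 59.4%, 60.3%, 59.6% and 58.8% of all 19970 coding genes in the same order of libraries, and at 6, 6, 5 and 5 of the 9 members.

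Short motifs were looked for on either strand, up to 100 bp from each summit. The ETS core CCGGAA was in 2 of the 49 member regions (4.08%, against 5.58% of all regions), those at the FLI1 and GABPA promoters, and the longer CCGGAAGT was in 0 (interval 0 to 7.25%, against 0.99%). AP1 (TGANTCA) was in 13 (26.5%, 14.9 to 41.1%, against 22.6%), of which 12 were among the 37 regions further than 1 kb from their own TSS and 1 among the 12 near one. RUNX (TGTGGTT) was in 3 (6.12%, against 5.34%) and IRF (GAAANNGAA) in 3 (6.12%, against 8.02%). The motifs can overlap each other, and CCGGAAGT contains the ETS core. Median GC was 65.2% in the regions near a TSS and 48.8% in the others. A match is a description of the letters and not evidence of binding.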

How the data were processed

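Chromatin accessibility was measured by ATAC-seq in 4 groups, each with 1 peak list that was treated as 1 library. Per the study's methods and the submitters' processing notes, the authors trimmed reads (Trimmomatic 0.3), aligned them to GRCh38 (Bowtie2 2.3.4.1), removed duplicates and called peaks (MACS2 2.1.2). For each peak the deposited lists give the authors' score, fold enrichment (a ratio) over local background, and −log10 p and −log10 q. A reproducibility filter is named, but whether these lists precede or follow it, and whether tags were shifted for the transposase, is not given in the sources used here.

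The pileup was recovered as the whole number that satisfied both fold and −log10 p, for 100% of peaks. Peaks of the lists that overlapped by at least 1 bp were merged into regions on 23 chromosomes. Ratios used peaks overlapping 1 to 1, minus the median log2 ratio of all pairs with at least 60 tags. That minimum held for sums and counts over all 9 loci, not for single regions or for sums within a gene. Intervals were exact (Poisson for tags, Clopper-Pearson for shares and ratios). Expected tags of an unlisted region were those of the other genotype's list under the same treatment times the median ratio of shared peaks, with that list's Poisson interval, and the tags needed are those reaching the lowest −log10 p listed, at the scaled background. That interval leaves out the counting error of the unlisted library. The members, lists and motifs were chosen with earlier results of these data known. Named were all 9 genes, every region of FLI1, ETS1 and the interval, and elsewhere the strongest region at and away from a TSS, regions of 1 genotype only and those past 1.5-fold by their interval. Other member regions were added after their values were seen, and 19 further ETS genes were given by counts. Steps were tested on simulated data. Alternatives were higher limits on −log10 q, lists cut to equal length, other windows, merging by summits, other centering and a fold of 2. Python 3.11.15, numpy 2.4.6, pandas 2.3.3, scipy 1.17.1, pysam 0.24.0 and matplotlib 3.10.9 were used.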

Additional observations from a re-analysis of the deposited data

Results flagged for a closer look

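Several results moved one way in 1 pair of libraries and the opposite way in the other, and none of these differences was tested. After IFN-γ the 9 loci had 4 more peaks in WT cells, and in FLI1-KO cells their number fell by 3. With FLI1-KO they had 1 more peak without IFN-γ, and with it their number fell by 6. These opposed directions were lost when the lists were cut to equal length, with 36 WT peaks and 33 WT-IFN-γ peaks, against 37 peaks in sgFLI1 and 34 peaks in sgFLI1-IFN-γ. At −log10 q of at least 5 the counts were 30, 29, 33 and 30 in that order. At FLI1 alone there was 1 more peak after IFN-γ in WT, and the number fell by 1 in FLI1-KO cells. FLI1-KO likewise had 1 more without IFN-γ, and the number fell by 1 with it. In the FLI1-ETS1 interval there were 3 more peaks after IFN-γ in WT, and the number fell by 2 in FLI1-KO cells. FLI1-KO had 4 more there without IFN-γ, and the number fell by 1 with it. The summed log2 ratio of IFN-γ over untreated was 0.087 in WT and -0.019 in FLI1-KO cells, and both counting intervals include 0. The whole lists moved in the same directions, from 59629 to 67470 peaks in WT and from 63203 to 59923 in FLI1-KO cells.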

How the results depend on the processing

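No paired analysis was possible because each group had 1 peak list, treated as 1 library. Of 96 alternative values for 26 results, 74 stayed within 1.5 times the count or within the counting interval, 22 moved beyond them and 0 changed sign where the interval excluded 0. A limit of −log10 q of at least 10 left 23 WT peaks and 23 WT-IFN-γ peaks, against 20 peaks in sgFLI1 and 21 peaks in sgFLI1-IFN-γ, 29 regions, 15 of them in every list, and 0 in either pattern of 1 genotype. At −log10 q of at least 5, both WT lists and neither FLI1-KO list held 2 regions. Single-list regions numbered 15 with 50 kb upstream and 19 when only summits within 200 bp were merged. Without centering, the summed log2 ratio of sgFLI1-IFN-γ over sgFLI1 was -0.179. With no tag minimum, that of sgFLI1-IFN-γ over WT-IFN-γ was 0.115 (0.014 to 0.216), and with 50 kb upstream that of WT-IFN-γ over WT was 0.131 (0.034 to 0.228), intervals that no longer include 0. A fold of 2 left 0 regions higher and 1 lower in sgFLI1 over WT, 0 and 0 in sgFLI1-IFN-γ over WT-IFN-γ, 0 lower in WT-IFN-γ over WT, and 0 higher in sgFLI1-IFN-γ over sgFLI1. Within 250 bp of the summit, 5 regions held the ETS core, 1 the longer ETS motif, 7 RUNX and 5 IRF. A stricter limit or wider window changes what is counted by construction. Regions missing from a list had 7 to 42 tags where listed, and their absence is a threshold call. Whether depth accounts for these absences was not tested.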
